A study of Homo sapiens with 4 samples.

Results

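The genes of the nuclear pore complex and of Ran-driven transport were followed in MV4-11 cells, a human acute myeloid leukemia (AML) cell line, after knockdown of ANP32B. The 42 genes were taken by symbol from a list of known pore and transport genes, and all 42 were found among the 18885 genes of the expression table. They comprise 27 nucleoporins and 15 transport factors, and they lie on 18 chromosomes. RNA-seq covered 2 control libraries (NC) and 2 libraries of cells with an shRNA against ANP32B (sh-ANP32B). For NC the labels state that there was no shRNA, whereas the study names a control hairpin, and an effect of transduction or puromycin selection cannot be told apart from the loss of ANP32B. The knockdown libraries come from stably transduced cells of 1 cell line, and their column names carry a mark that matches a hairpin number of the study, although the hairpin used for sequencing is not named. The labels do not state that the libraries of a group came from separate cultures, so the p-values measure the spread between these libraries, which may be technical.

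Nuclear pores are the channels through which RNA and protein pass the nuclear envelope. Outer and inner rings of scaffold nucleoporins hold the pore in the membrane, nucleoporins with phenylalanine-glycine (FG) repeats fill the channel, and filaments and a basket extend to either side. Importins and exportins, the karyopherins, carry cargo through this channel, and the small GTPase RAN sets the direction of transport, because RCC1 loads it with GTP in the nucleus and RANGAP1 with RANBP1 and RANBP2 promotes GTP hydrolysis in the cytoplasm. In AML, NUP98 and NUP214 are known as partners of fusion genes, and XPO1, which exports proteins from the nucleus, is a known drug target.

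Expression is given as TPM, a level per transcript length with a common total for all libraries. The TPM keep no read numbers, so the depth is unknown. The log2 fold change (log2FC) compares TPM + 1 in sh-ANP32B with NC and was fitted with limma over 16937 genes, namely those that reached 1 TPM in 2 or more libraries. Following the limits of the study, a gene counted as called if its log2FC lay beyond 0.5 on either side and its p, before adjustment, was under 0.05. ANP32B itself had 358 and 364 TPM in NC and 54.1 and 49.3 TPM in sh-ANP32B. Of 6 marker genes of the line that were in the table, such as SPI1 and HOXA9, all were above 5 TPM in every library. Mitochondrial genes held from 15.4% to 15.9% of the TPM in NC and from 17.4% to 17.6% in sh-ANP32B. Monocyte genes moved with the knockdown. Of 15 listed monocyte genes 11 were in the table, all 11 were called higher, and their summed level was from 741 to 754 TPM in NC and from 6332 to 6378 TPM in sh-ANP32B. The part of these shifts in the results on transport genes was not tested, and in bulk RNA fewer cells of a type and less RNA per cell cannot be told apart.

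Of the 42 genes, 18 were called lower after ANP32B knockdown, none was called higher, and 24 were not called. Of all genes tested, 10.8% were called lower and 20.2% were called higher. Among the 7485 genes whose mean TPM lay within the range of the 42 genes, 14.5% were called lower and 14.8% higher. The 18 genes made up 42.9% of the list. SEC13 alone was higher at an unadjusted p under 0.05 in limma, inside the fold limit. All 18 also had an adjusted p below 0.05 in limma with Benjamini-Hochberg adjustment, compared with 10.1% of all genes tested that passed this limit on the lower side and 17.9% on the higher. With a limit of 1 in place of 0.5, NDC1 and TNPO1 alone were called lower. Of all genes tested, 1.67% passed this limit on the lower and 6.88% on the higher side. Without the fold limit, 36 genes had a negative fold change at an adjusted p below 0.05 from limma, against a background of 19.7%. SEC13 was the single gene with a positive fold change at that limit, against a background of 26%, and it passed narrowly. Both sh-ANP32B libraries were below both NC libraries for 38 genes, against 32.1% of all genes tested, and SEC13 alone had both above, against 42.5% of all genes tested. RANBP2, AAAS and IPO4 overlapped between the groups. The sign of the log2FC was negative for 40 of the 42 genes and for 43.7% of all genes tested.

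The median log2FC of the 42 genes was -0.46, and that of all genes tested was 0.08. Of all genes tested, 13.5% had a fold change below -0.46. The summed level of the 42 genes was 4732 and 4875 TPM in NC and 3564 and 3418 TPM in sh-ANP32B, so that 72.7% of the control mean was left. The genes were well expressed, with means over the 4 libraries from 17.1 TPM to 412 TPM and a median of 67.2 TPM, compared with 14.2 TPM for all genes tested. Across the 42 genes, which share the same libraries, the mean log2 level and the fold change had a Pearson's r of 0.0637. The replicates lay close together, with a median absolute log2 difference of 0.0556 in NC and 0.072 in sh-ANP32B.

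**Figure D1:**
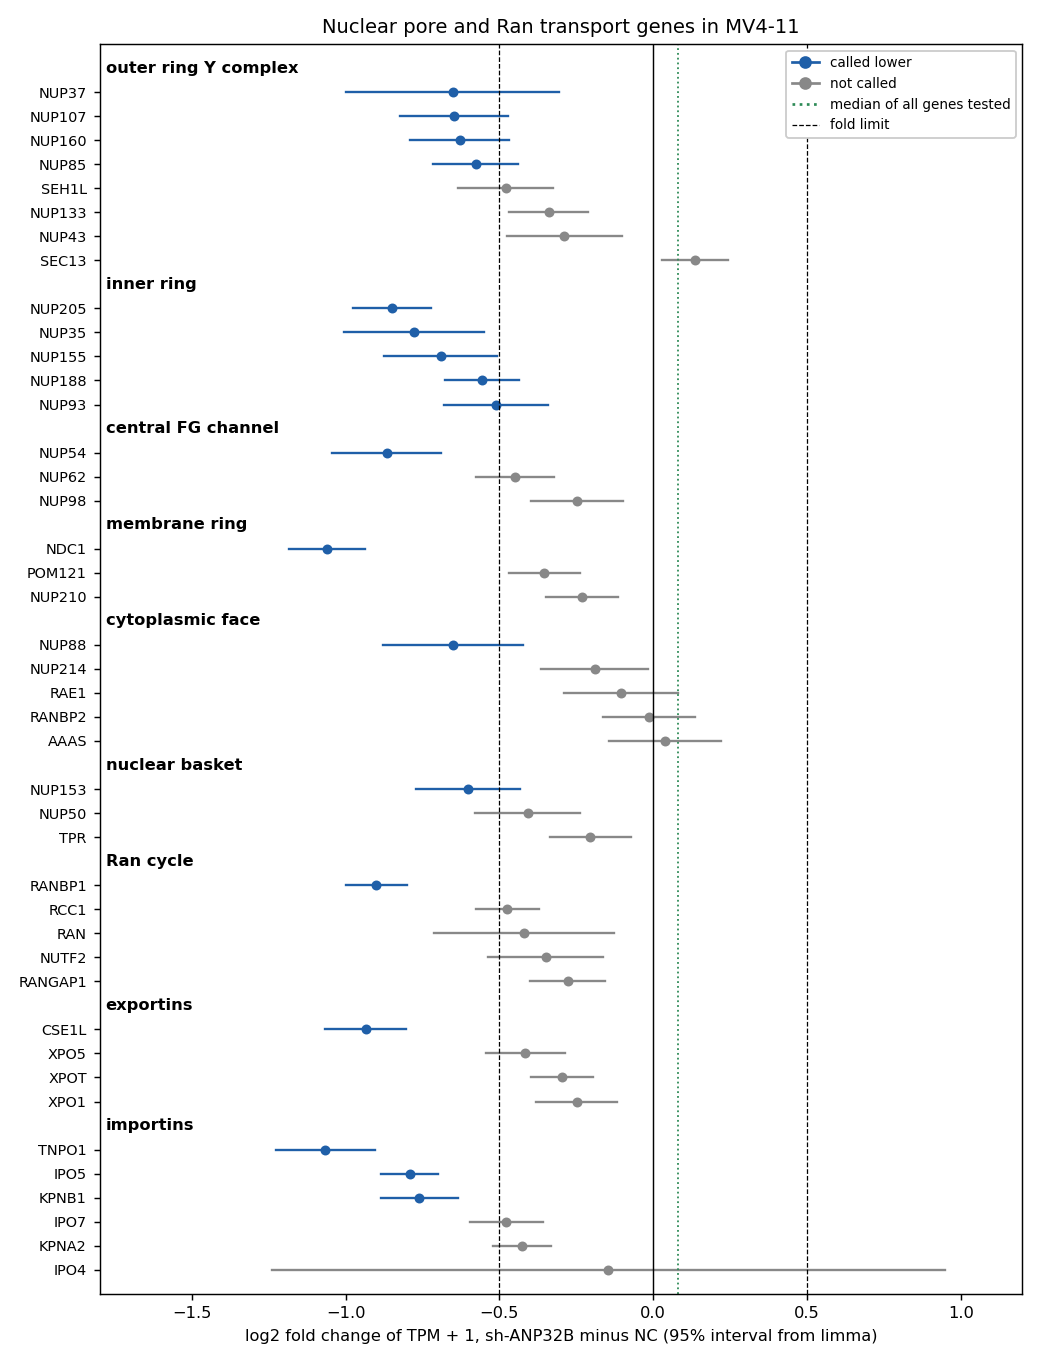
Log2 fold change, log2FC (sh-ANP32B minus NC, of TPM + 1) of the 42 genes on the horizontal axis, with bars for the 95% interval from limma over 2 libraries per group, grouped by place in the pore or role in transport. The 18 called genes are in blue, dashed lines mark the fold limit, and the dotted line marks the median of all genes tested at 0.08. All 5 inner ring genes are blue, whereas NUP88 is the only blue gene among the 5 of the cytoplasmic face, and SEC13 lies on the right at 0.14.

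The scale of the libraries moved the border of these calls. With median-of-ratios scaling, under which the median of all genes was 0.00, 26 of the 42 genes were called lower, and all 18 were among them. Of all genes tested, 14.6% were called lower with this scaling. With quantile normalization, under which the median of all genes was -0.04, 17 were called lower, beside 14.8% of all genes tested. Lower genes made up 34.9% of all calls on the TPM as deposited, 47.1% with median-of-ratios scaling and 50.6% with quantile normalization. Subtracting the all-gene median from the median of the 42 genes gave -0.54 without further scaling, -0.55 with median-of-ratios scaling and -0.39 with quantile normalization.

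To see whether the genes share promoter sequence, windows of 300 bases from RefSeq on GRCh38.p14 (250 bases before to 50 after the start of transcription) were searched on both strands for CACGTG, the E-box bound by MYC with MAX, and for GCGGGAA and GCGCCAA, sites of the E2F type. Of the 42 genes, 39 had a window, with 52 windows in all, and RANBP1, KPNB1 and NUP43 had none. At least 1 window held an E2F-type site in 11 of the 39 genes (28.2%), compared with 17.4% of the 10015 tested genes with a window and 11% of all 27305 genes with a window. CACGTG was found in 7 of the 39 genes (17.9%), compared with 12.9% and 8.77%. Among the 16 called genes with a window, 6 held an E2F-type site and 1 held CACGTG. Among the 23 others, 5 and 6 did. The letters are a description, and binding was not measured here.

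The next windows, 5′ to 3′ on the strand of the gene with the matches in capitals, are shown for the called genes with at least 2 matches in 1 window and for TNPO1, the gene of lowest fold change. NUP155 carries GCGCCAA on both strands close to the start, NUP160 carries GCGGGAA far from and close to the start, and NUP188 carries CACGTG at both of its matches. No matches overlap.
TNPO1 (chr5:72816411-72816710, plus strand): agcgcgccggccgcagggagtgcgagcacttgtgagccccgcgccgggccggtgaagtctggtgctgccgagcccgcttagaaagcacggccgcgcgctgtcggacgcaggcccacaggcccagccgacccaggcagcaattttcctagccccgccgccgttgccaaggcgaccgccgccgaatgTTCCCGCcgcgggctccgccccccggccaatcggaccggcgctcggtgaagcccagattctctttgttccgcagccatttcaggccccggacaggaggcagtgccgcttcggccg
NUP155 (chr5:37371057-37371356, minus strand): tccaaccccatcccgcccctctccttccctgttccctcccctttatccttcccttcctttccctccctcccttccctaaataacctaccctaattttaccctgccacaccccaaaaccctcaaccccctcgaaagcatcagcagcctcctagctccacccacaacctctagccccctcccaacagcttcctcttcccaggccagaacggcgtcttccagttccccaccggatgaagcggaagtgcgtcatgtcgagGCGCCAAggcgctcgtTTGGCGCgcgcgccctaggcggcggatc
NUP160 (chr11:47848301-47848600, minus strand): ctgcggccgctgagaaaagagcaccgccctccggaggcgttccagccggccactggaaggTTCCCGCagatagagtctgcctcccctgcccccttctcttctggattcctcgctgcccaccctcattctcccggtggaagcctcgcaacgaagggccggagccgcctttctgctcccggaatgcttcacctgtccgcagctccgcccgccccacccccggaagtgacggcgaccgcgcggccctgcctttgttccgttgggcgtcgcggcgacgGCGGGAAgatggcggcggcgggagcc
NUP188 (chr9:128947449-128947748, plus strand): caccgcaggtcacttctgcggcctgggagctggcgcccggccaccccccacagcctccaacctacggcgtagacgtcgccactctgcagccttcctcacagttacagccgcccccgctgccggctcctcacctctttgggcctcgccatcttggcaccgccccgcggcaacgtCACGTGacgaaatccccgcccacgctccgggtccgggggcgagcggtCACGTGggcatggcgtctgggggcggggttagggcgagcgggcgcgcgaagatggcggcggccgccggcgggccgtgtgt

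Among the nucleoporins, the inner ring was the group in which every gene was called lower, beside 10.8% of all genes tested. Every gene of the channel, the membrane ring and the basket also had a negative fold change at an adjusted p below 0.05 in limma. Of all genes tested, 19.7% did. The inner ring links the membrane to the FG channel, and its 5 genes had a median log2FC of -0.69. NUP205, a large scaffold protein, had 79.2 and 81.7 TPM in NC and 44.1 and 44.3 TPM in sh-ANP32B, which left 54.9% of the control mean. Its log2FC was -0.85 (SE 0.0504, limma adjusted p = 2.21e-04). NUP35, which binds the membrane, had 21.7 and 21.9 TPM against 11.7 and 12.96 TPM, a log2FC of -0.78 (limma adjusted p = 0.00166). The groups lay well apart for both genes, with no overlap between libraries. NUP155 had 32.8 and 35.5 TPM against 20.6 and 20.9 TPM (-0.69 on the log2 scale). NUP188, the relative of NUP205, had 91.3 and 93.0 TPM against 63.4 and 61.2 TPM (-0.56). NUP93, which ties the inner ring to the channel, had 99.4 and 88.4 TPM against 66.0 and 65.0 TPM. At -0.51 it stood at the fold limit, and it was at -0.43 without NC replicate 1, -0.49 with quantile normalization and -0.48 without mitochondrial genes, where it was not called.

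The outer ring is built from the Y complex, of which 4 of the 8 genes were called lower, beside 10.8% of all genes tested. NUP107 had 42.6 and 44.02 TPM in NC and 28.4 and 26.1 TPM in sh-ANP32B, a log2FC of -0.65 (SE 0.0703, limma adjusted p = 0.00126). NUP160 had 79.4 and 82.8 TPM against 49.6 and 54.6 TPM (-0.63), and NUP85 had 93.1 and 88.5 TPM against 58.9 and 62.2 TPM (-0.58). NUP37 had 33.2 and 43.0 TPM in NC and 25.4 and 22.1 TPM in sh-ANP32B. Its log2FC of -0.65 had the widest interval of the ring (95% from -0.998 to -0.306), and it was -0.47 and no longer called without NC replicate 2. SEH1L (-0.48), NUP133 (-0.34) and NUP43 (-0.29) were inside the fold limit, each with an adjusted p below 0.05 in limma.

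SEC13, the remaining subunit of the Y complex, did not follow the others. It also belongs to the COPII coat of vesicles that leave the endoplasmic reticulum. It had 157 and 150.2 TPM in NC and 170.3 and 168 TPM in sh-ANP32B, with a log2FC of 0.14 (SE 0.043, limma adjusted p = 0.0469) inside the fold limit. Over all settings tried the fold change of SEC13 stayed positive, from 0.04 to 0.18, whereas the other 7 subunits stayed negative in each of them. Its limma adjusted p was above 0.05 with the replicate block (0.0671), without a filter on low TPM (0.0514), with median-of-ratios scaling (0.554) and with any 1 library left out (0.0624 to 0.186). SEC13 was also the most abundant subunit, with a mean of 153.8 ± 5.04 TPM (SD, n = 2) in NC, compared with 38.1 ± 6.94 TPM (SD, n = 2) for NUP37.

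The channel and the membrane ring each held 1 gene called lower, beside 10.8% of all genes tested, and 2 inside the fold limit. All 3 genes of each had a negative fold change at an adjusted p below 0.05 in limma, against 19.7% of all genes tested. NUP54, an FG nucleoporin of the channel, had 55.0 and 57.3 TPM in NC and 28.9 and 31.9 TPM in sh-ANP32B, a log2FC of -0.87 (SE 0.0709, limma adjusted p = 5.02e-04). NUP62, its partner in the channel, had 111 and 114 TPM against 84.5 and 79.6 TPM (-0.45). NUP98, another FG nucleoporin, had 57.5 and 60.6 TPM against 48.1 and 51.0 TPM (-0.25). NDC1, a transmembrane nucleoporin that anchors the pore, had the lowest fold change of all nucleoporins. The gene lies on the minus strand at chr1:53765478-53838463 (hg38). It had 91.2 and 92.6 TPM in NC and 44.2 and 42.9 TPM in sh-ANP32B, which left 47.4% of the control mean. Its log2FC was -1.06 (SE 0.0497, limma adjusted p = 1.34e-04). The other transmembrane genes were POM121 (-0.35) and NUP210 (-0.23). NUP210 was the most abundant nucleoporin, with 424 and 453 TPM in NC and 381 and 365 TPM in sh-ANP32B.

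The cytoplasmic face had the smallest median of the structural groups, at -0.11 on the log2 scale. Its median was -0.0367 without sh-ANP32B replicate 1, -0.174 without sh-ANP32B replicate 2 and -0.20 with median-of-ratios scaling. Of its 5 genes, NUP88 alone was called lower, beside 10.8% of all genes tested. NUP88 had 53.5 and 62.3 TPM in NC and 38.0 and 34.8 TPM in sh-ANP32B, a log2FC of -0.65 (limma adjusted p = 0.00307). NUP214, its partner in the export of mRNA and protein, had 27.1 and 28.2 TPM against 24.4 and 23.8 TPM (-0.19, limma adjusted p = 0.0714). RANBP2, which forms the cytoplasmic filaments and is a SUMO ligase, had 34.0 and 34.7 TPM against 33.8 and 34.1 TPM. The difference of RANBP2 was -0.01 with a 95% interval from -0.16 to 0.13, which does not reach the fold limit on either side. RAE1, an mRNA export factor, was at -0.11 (limma adjusted p = 0.29). AAAS, known from triple A syndrome, had 58.0 and 53.1 TPM against 59.6 and 54.5 TPM (0.04, limma adjusted p = 0.706), and its sign turned with the scaling (-0.06 with median-of-ratios scaling). RANBP2 turned to 0.02 without mitochondrial genes. RANBP2 has near-identical RGPD copies and POM121 has the copy POM121C, so their reads could have been split between genes.

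The nuclear basket held NUP153, which was called lower, as were 10.8% of all genes tested, and NUP50 and TPR, inside the fold limit. All 3 had a negative fold change at an adjusted p below 0.05 in limma, against 19.7% of all genes tested. NUP153 had 59.0 and 59.6 TPM in NC and 40.7 and 36.8 TPM in sh-ANP32B, a log2FC of -0.60 (SE 0.0674, limma adjusted p = 0.0014). NUP50 had 35.5 and 35.7 TPM against 27.5 and 25.6 TPM (-0.41). TPR, the filament protein of the basket, had 81.7 and 84.5 TPM against 74.0 and 70.0 TPM (-0.20). Both sh-ANP32B libraries were below both NC libraries for all 3 basket genes, against 32.1% of all genes tested.

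RAN, the GTPase itself, had the highest mean TPM of the 42 genes in NC, while NUP210 had the highest in sh-ANP32B. RAN had 445 and 496 TPM in NC and 395 and 312 TPM in sh-ANP32B. Its log2FC of -0.42 (SE 0.117, limma adjusted p = 0.0328) was inside the fold limit, and the sh-ANP32B libraries differed by 0.34 on the log2 scale, the widest gap of the 42 genes in this group. Without sh-ANP32B replicate 1 the value was -0.59 and RAN was called, and without sh-ANP32B replicate 2 it was -0.25. All 5 genes of the cycle had a negative fold change at an adjusted p below 0.05 in limma, against 19.7% of all genes tested. RANBP1, which binds RAN with GTP and assists RANGAP1, was the one gene of the cycle called lower, beside 10.8% of all genes tested. RANBP1 had 302 and 299 TPM in NC and 157 and 163 TPM in sh-ANP32B, a log2FC of -0.90 (SE 0.0394, limma adjusted p = 1.17e-04). The difference was far larger than the spread within either group.

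RCC1, the exchange factor of RAN, had 253 and 251 TPM in NC and 185 and 177 TPM in sh-ANP32B, a log2FC of -0.47 just inside the limit (limma adjusted p = 6.01e-04). RCC1 shares 242 exonic bases with SNHG3 on the same strand, whose TPM had a fold change of -0.87. RANGAP1, which triggers GTP hydrolysis, had 157 and 168 TPM against 136 and 131 TPM (-0.28). NUTF2, which returns RAN to the nucleus, had 60.3 and 63.9 TPM against 51.4 and 45.7 TPM (-0.35). All 5 genes of the cycle had both sh-ANP32B libraries below both NC libraries, as had 32.1% of all genes tested. The annotation names 9 pseudogenes of RAN and 7 of NUTF2, and counting may have divided reads among such copies. Further, 393 exonic bases of RANBP1 are shared with TRMT2A on the opposite strand, whose TPM had a fold change of 0.16.

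**Figure D2:**
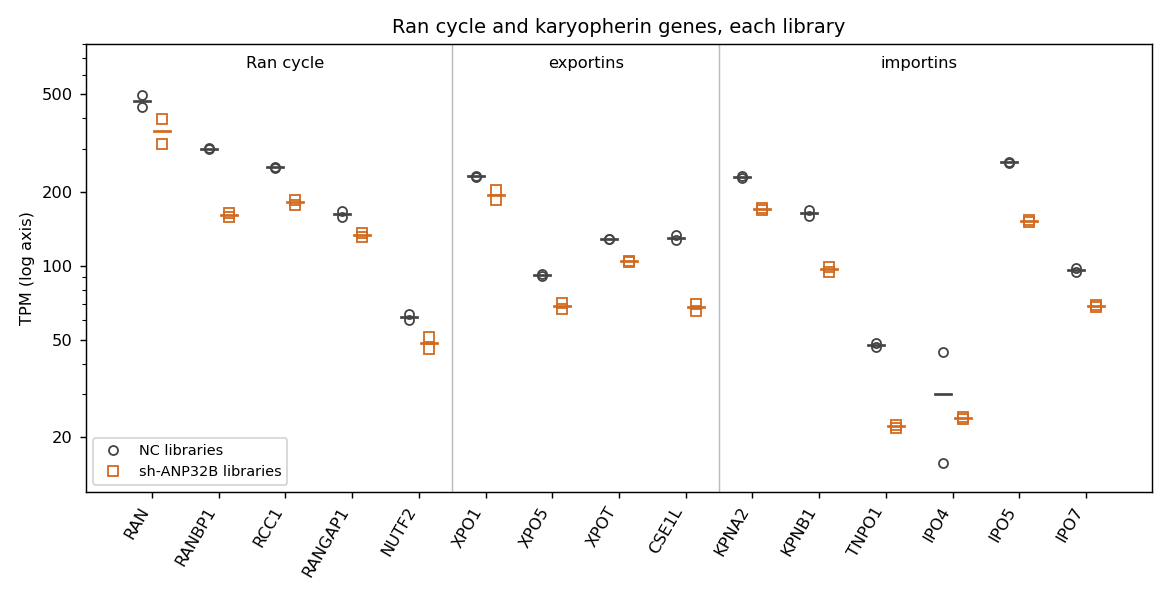
TPM (log axis) of the 15 genes of the Ran cycle, the exportins and the importins in each library, with circles for the 2 NC libraries, squares for the 2 sh-ANP32B libraries and lines for the group means. Both squares lie below both circles for 14 genes, against 32.1% of all genes tested. IPO4 is the exception, with NC libraries at 15.8 and 44.6 TPM.

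Of the 4 exportins, CSE1L alone was called lower, beside 10.8% of all genes tested. All 4 had a negative fold change at an adjusted p below 0.05 in limma, against 19.7% of all genes tested. CSE1L returns importin alpha to the cytoplasm, and it had 133 and 128 TPM in NC and 69.7 and 65.6 TPM in sh-ANP32B, which left 51.9% of the control mean. Its log2FC was -0.94 (SE 0.0529, limma adjusted p = 2.00e-04). XPO1 had 231 and 231 TPM in NC and 203 and 186 TPM in sh-ANP32B, a log2FC of -0.25 (95% interval from -0.38 to -0.12, limma adjusted p = 0.0128). XPO5, which exports miRNA precursors, had 92.9 and 90.6 TPM against 66.6 and 70.5 TPM (-0.42). XPOT, the tRNA exportin, had 128 and 128 TPM against 104 and 105 TPM (-0.30). The 95% interval of CSE1L (from -1.07 to -0.80) lay below those of XPO5, XPOT and XPO1.

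Of the 6 importins, 3 were called lower, beside 10.8% of all genes tested. A negative fold change at an adjusted p below 0.05 in limma was found for 5 of the 6, against 19.7% of all genes tested. TNPO1, transportin 1, which imports many hnRNP proteins, had the lowest fold change of all 42 genes. The gene lies on the plus strand at chr5:72816312-72916733 (hg38). It had 46.5 and 48.7 TPM in NC and 22.5 and 21.9 TPM in sh-ANP32B, a log2FC of -1.07 (SE 0.0645, limma adjusted p = 2.30e-04), and 46.7% of the control mean was left. IPO5, which imports ribosomal proteins, had 263 and 265 TPM against 153 and 151 TPM (-0.79, limma adjusted p = 1.31e-04). KPNB1, the importin beta that carries importin alpha with its cargo, had 160.0 and 169 TPM against 98.8 and 94.4 TPM (-0.76, limma adjusted p = 2.80e-04). Both sh-ANP32B libraries were below both NC libraries for TNPO1, IPO5 and KPNB1, against 32.1% of all genes tested. KPNA2, an importin alpha, had 232 and 227 TPM against 169 and 172 TPM (-0.43), and IPO7 had 97.8 and 94.0 TPM against 68.1 and 69.0 TPM (-0.48). Both were inside the fold limit, with no overlap between the groups. Among the importins, KPNA2 has 3 named pseudogenes, as has TNPO1.

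IPO4, an importin for histones and ribosomal proteins, could not be placed. It had 15.8 and 44.6 TPM in NC and 23.7 and 24.3 TPM in sh-ANP32B, and the log2 difference of 1.44 between the NC libraries was the widest of the 42 genes. Its fold change was -0.87 without NC replicate 1 and 0.58 without NC replicate 2, called in opposite directions. IPO4 lies on the minus strand at chr14:24180219-24188869 (hg38) and shares 3375 of its 4912 exonic bases with ENSG00000259522, a protein-coding gene on the same strand. That gene had 32.5 and 8.29 TPM in NC and 9.01 and 8.83 TPM in sh-ANP32B, so it was high in the NC library in which IPO4 was low. The TPM of both genes together, a sum chosen after the values were seen, were 48.3 and 52.9 in NC and 32.7 and 33.1 in sh-ANP32B. On this sum the groups did not overlap, and the log2 difference was -0.60.

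In total, 24 of the 42 genes share exonic bases with another gene of the annotation, and 13 have a named pseudogene. Of the 18 called genes, 8 (CSE1L, IPO5, NDC1, NUP35, NUP85, NUP93, NUP155 and NUP205) share no exonic bases with any other gene. NUP88 shares 3786 exonic bases with RABEP1 on the opposite strand, which had a fold change of -0.22, and NUP54 shares 1814 with ART3, which was under 3 TPM. Whether reads were counted by strand is not given in the sources used here.

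The rest of the transport machinery was compared with the 42 genes through 4 lists of other genes. Of 6 other pore proteins tested, 3 were called lower, beside 10.8% of all genes tested. These were NUP58, which forms the channel complex with NUP54 and NUP62 (65.0 and 64.4 TPM in NC against 39.9 and 41.8 TPM, log2FC -0.65), AHCTF1, which seats the pore on chromatin (48.1 and 52.1 TPM against 35.5 and 30.9 TPM, -0.58), and TMEM33 (-0.55). AHCTF1 was at -0.48 without sh-ANP32B replicate 2 and TMEM33 at -0.32 without NC replicate 1, where neither was called. NUP42, of the cytoplasmic face, had 74.8 and 72.8 TPM in NC and 85.6 and 95.4 TPM in sh-ANP32B (0.29, limma adjusted p = 0.0164), inside the fold limit.

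Of 18 other karyopherins and Ran regulators tested, 2 were called lower (11.1%) and 1 higher, beside 10.8% and 20.2% of all genes tested. The share called lower was thus about that of all genes. With no fold limit, 10 of the 18 were lower and 1 higher at an adjusted p below 0.05 in limma. Of all genes tested, 19.7% were lower and 26% higher at that limit. The 18 genes had a median log2FC of -0.26. RANBP3, a cofactor of XPO1, had 64.9 and 63.8 TPM in NC and 41.4 and 42.2 TPM in sh-ANP32B (-0.61). RANGRF, a RAN-binding protein, had 47.5 and 58.5 TPM against 33.5 and 34.1 TPM (-0.63), and was at -0.48 without NC replicate 2, where it was not called. IPO13 rose, with 27.8 and 29.6 TPM in NC and 52.5 and 49.7 TPM in sh-ANP32B, a log2FC of 0.81 (SE 0.0667, limma adjusted p = 5.08e-04). IPO13 is a karyopherin that both imports and exports cargo. The importins alpha KPNA1, KPNA3, KPNA4, KPNA5 and KPNA6 lay between -0.29 and 0.08, and none of them was called, nor was KPNA2 at -0.43. With no fold limit, KPNA2, KPNA3 and KPNA6 were lower at an adjusted p below 0.05 in limma, whereas KPNA1, KPNA4 and KPNA5 did not reach it.

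**Figure D3:**
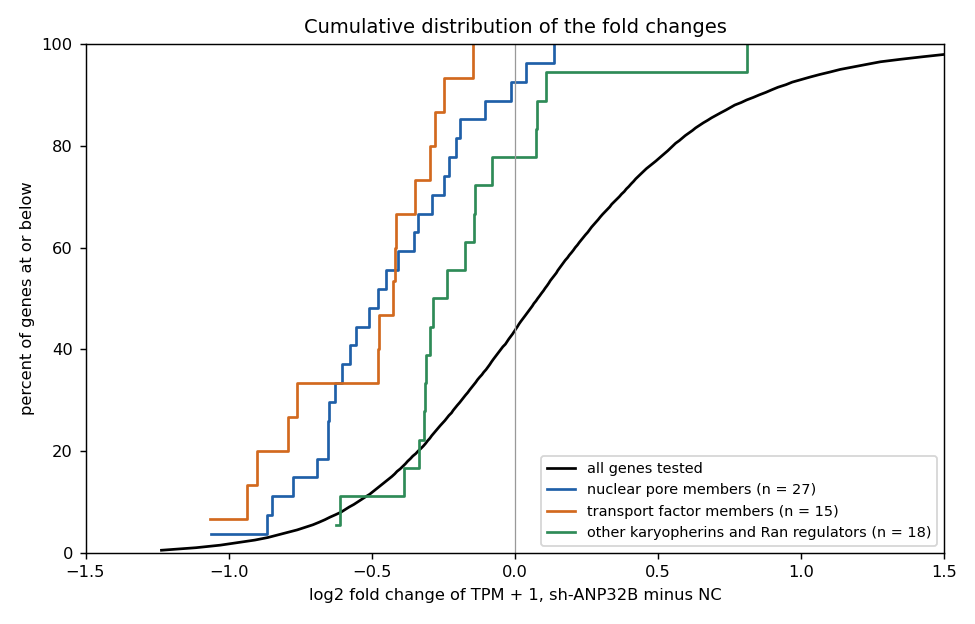
Cumulative share of genes (percent) at or below each log2FC (sh-ANP32B minus NC) for all genes tested, the 27 nucleoporins, the 15 transport factors and 18 other karyopherins and Ran regulators. The curves of the nucleoporins and transport factors lie to the left of all genes, with medians of -0.48 and -0.43 compared with 0.08, and the other karyopherins lie between, at -0.26.

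Of 23 genes of mRNA export, 5 were called lower and none was called higher. Another 3 were higher at an unadjusted p under 0.05 in limma, inside the fold limit. The share called lower was 21.7%, beside 10.8% of all genes tested, of which 20.2% were called higher. ALYREF, the adaptor that loads the export receptor on mRNA, had 211 and 218 TPM in NC and 115 and 126 TPM in sh-ANP32B (log2FC -0.83, limma adjusted p = 2.96e-04). NXT1, the cofactor of the export receptor NXF1, had 92.4 and 85.8 TPM against 51.2 and 48.7 TPM (-0.82, limma adjusted p = 3.72e-04). NXF1 itself had 47.3 and 51.5 TPM against 67.2 and 61.7 TPM (0.38), and NXT2, the relative of NXT1, had 29.4 and 26.6 TPM against 38.5 and 36.9 TPM (0.42), both inside the fold limit. The THO subunits THOC3 (-0.75), THOC5 (-0.53) and THOC6 (-0.51) fell as well. THOC5 and THOC6 were not called without sh-ANP32B replicate 1 (-0.47 and -0.45), nor was THOC6 without mitochondrial genes (-0.48).

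Of 15 genes of the nuclear lamina and envelope tested, 4 were called lower (26.7%) and 2 higher, beside 10.8% and 20.2% of all genes tested, and their median log2FC was -0.06. TMPO, a lamin-binding protein of the inner membrane, had 250.2 and 239 TPM in NC and 132 and 125 TPM in sh-ANP32B (log2FC -0.93, limma adjusted p = 1.62e-04). The B-type lamins LMNB1 (-0.74) and LMNB2 (-0.68) and the chromatin-binding BANF1 (-0.75) fell too. LMNA, the A-type lamin, had 154 and 150.3 TPM against 202 and 187 TPM (0.35), inside the fold limit. SUN2, which links the lamina to the cytoskeleton, rose from 146 and 148 TPM to 240 and 255 TPM (0.75, limma adjusted p = 2.33e-04). SYNE1, a large protein of the nuclear envelope, was called higher at under 2 TPM in every library (0.57, limma adjusted p = 0.0766). It had 0.87 and 0.69 TPM in NC and 1.56 and 1.74 TPM in sh-ANP32B. It thus passed the TPM filter only through the group in which it was high, and its call carries no weight. SYNE1 lost its call when any 1 library was left out (0.50 to 0.65), with the replicate block, and with both other scalings (0.52 with median-of-ratios scaling and 0.28 with quantile normalization).

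**Figure D4:**
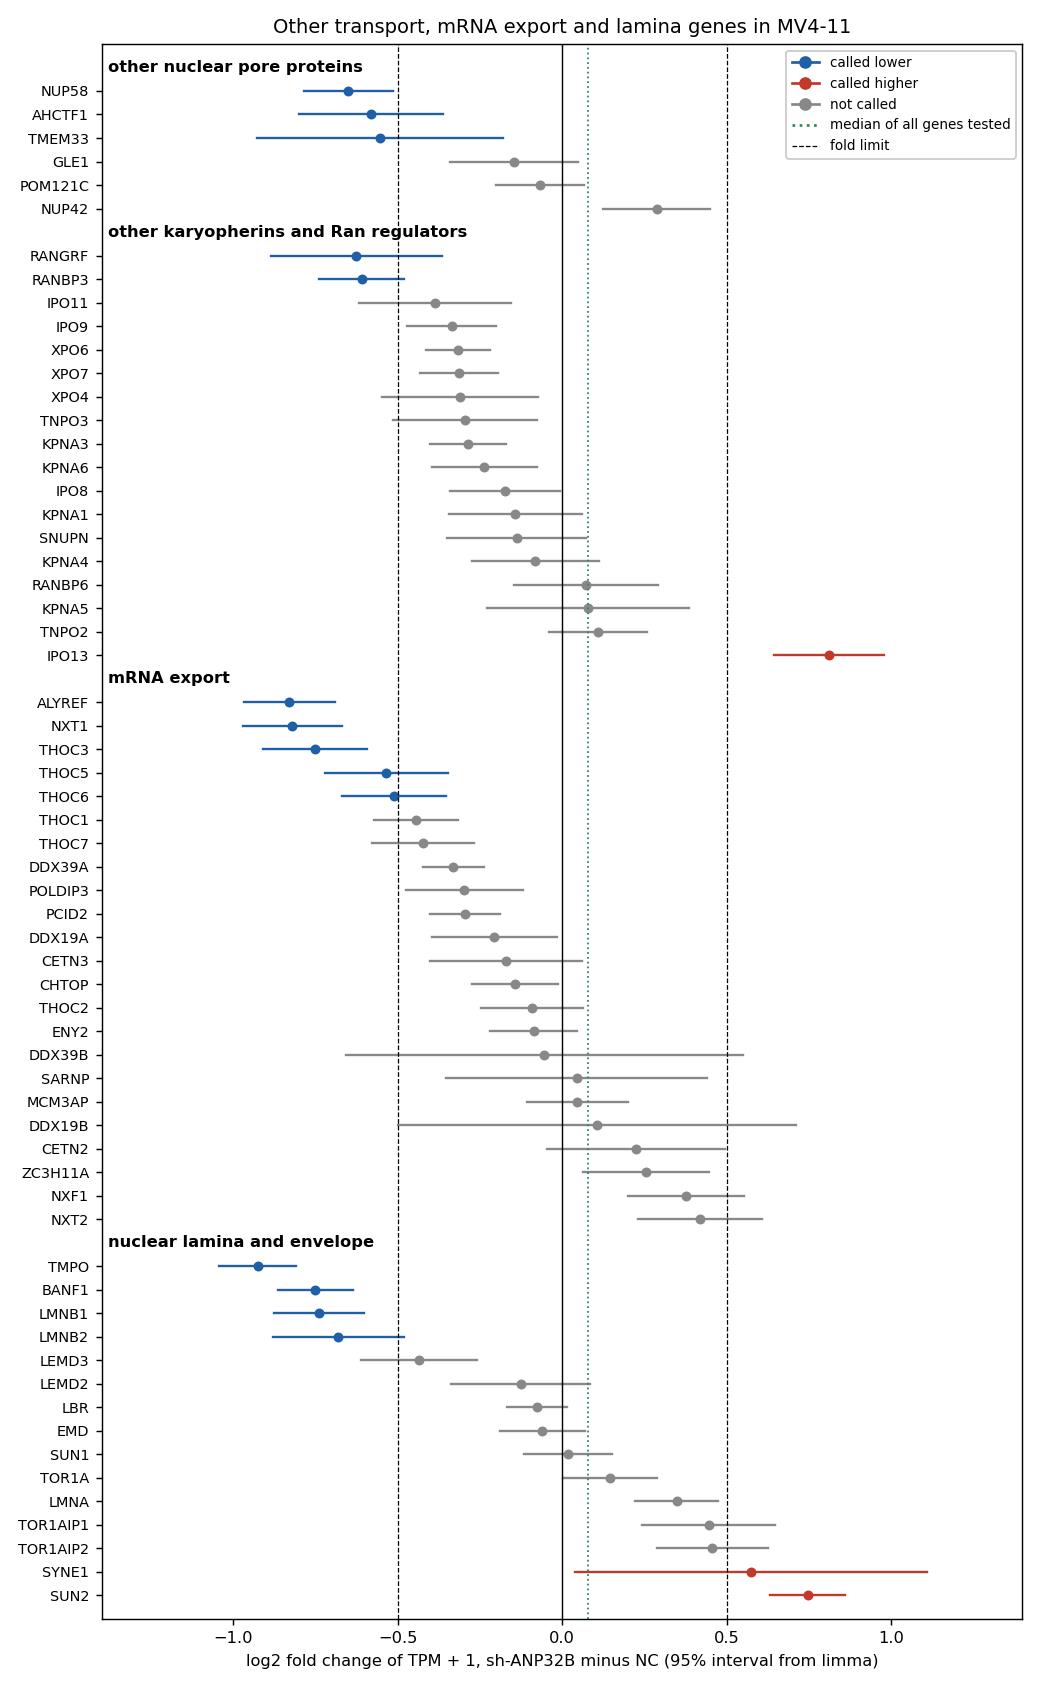
Log2 fold change, log2FC (sh-ANP32B minus NC, of TPM + 1) of the 62 tested genes of the 4 other lists, with 95% intervals from limma over 2 libraries per group, called lower in blue and called higher in red. IPO13 and SUN2 stand out on the right, opposite to TMPO, ALYREF and NXT1 on the left.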

How the data were processed

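RNA of MV4-11 cells was sequenced from 2 NC and 2 sh-ANP32B libraries, grouped by their labels. Per the labels' processing notes and the methods, the authors aligned reads to hg38 with HISAT2 (2.0.5). The deposited TPM per gene and library, a unit read from nearly equal column sums, were used as given; the tool, annotation and strand setting behind them are not given in the sources used here, and depth is unknown. Identifiers were matched to GENCODE version 44 (14961 of 18885 had a symbol). The values are not counts, so DESeq2, which the authors used, was not run. limma (3.58.1, R 4.3.3; lmFit, eBayes with trend) was fitted on log2(TPM + 1) over the 16937 genes that reached 1 TPM in 2 or more libraries, with Benjamini-Hochberg adjustment, and was tested on simulated data. With 2 libraries against 2, the smallest two-sided p of an exact permutation test is 0.33, and single-gene p-values rest on the variance limma shares across genes.

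The 42 genes and the other lists were chosen with earlier results of these data known, so lists were described by counts and medians and not tested. Values are given per library for called genes and for all Ran cycle, exportin and importin genes; the remaining nucleoporins are also named, more than the extremes that were planned, and of other lists the lowest and highest called genes and up to 4 more. NUP42, LMNA, NXF1, NXT2 and the importin alpha genes were named after their values were seen, as was the partner of IPO4. Alternatives were a replicate block, no filter, a pseudocount of 0.1, median-of-ratios scaling, quantile normalization, TPM without mitochondrial genes, other call limits and each library left out. A count of FG repeats was planned, and protein sequences were not used here. Python 3.11.15 with pandas 2.3.3 and matplotlib 3.10.9 was used for tables and plots.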

Additional observations from a re-analysis of the deposited data

How the results depend on the processing

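The 18 calls were the same 18 genes with the replicate number as a block, without a filter, with a pseudocount of 0.1 and at an adjusted p below 0.05 with the fold limit of 0.5. With each library left out, the median log2 fold change of the 42 genes lay between -0.50 and -0.44. That of all genes tested lay between 0.06 and 0.09. Of the called genes, NUP93 was at -0.43 without NC replicate 1 and NUP37 at -0.47 without NC replicate 2, both inside the fold limit. A fold limit of 1 left 2 of the 42 (NDC1 and TNPO1) and 0 of the 62 other genes, and an adjusted p below 0.05 with no fold limit, chosen after seeing the data, gave 37 of the 42 (36 lower and 1 higher) and 37 of the 62 (28 lower and 9 higher), against 17 of the 62 at the main limits. Of all genes tested, 19.7% were lower and 26% higher at that limit. At the fold limit of 1, limma called 283 genes lower and 1165 higher over the whole table. Same-numbered libraries did not deviate together (correlation -0.0232), and the replicate block gave 18 calls among the 42 and 16 among the 62, where SYNE1 was lost.

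Median-of-ratios scaling moved the median log2 fold change to -0.56 over all 42 genes, -0.62 in the outer ring, -0.78 in the inner ring, -0.55 in the channel, -0.45 in the membrane ring, -0.50 in the basket and -0.45 in the exportins. Quantile normalization moved the membrane ring to -0.33. Without mitochondrial genes, the membrane ring was at -0.32 and the exportins at -0.32. Leaving out single libraries moved the outer ring between -0.53 and -0.45 (without NC replicate 2) and the importins between -0.80 (without NC replicate 1) and -0.61. Signs turned only for RANBP2 (0.0181 without mitochondrial genes), AAAS (-0.0578 with median-of-ratios scaling, and -0.0254 without NC replicate 2, -0.0264 without sh-ANP32B replicate 1 and up to 0.102 without sh-ANP32B replicate 2) and IPO4 (from -0.87 to 0.58 with each library left out). The cause of these shifts was not tested. TPM keep no read numbers, so no counting error can be given.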
